A study of Mus musculus with 2 samples.

Results

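DNA replication machinery here means 44 named genes for origin licensing, the replicative helicase, the replicative polymerases, the sliding clamp and its loader, and the proteins that finish and repackage the new strands. They were chosen by their known role, as a list of gene names and with no threshold on values, though with earlier results of these data known, and all 44 were found, each as 1 gene ID, among the 54736 gene symbols of the count matrix. The counts are unique molecular identifiers (UMIs, each standing for 1 captured RNA molecule) of spliced transcripts in single 63.3 cells, a mouse acute myeloid leukemia line. The study marked each culture with its own DNA barcode (MULTI-seq), pooled the cultures and profiled the pool with 10x Genomics v3 chemistry in 2 runs. All cultures were grown in medium with dialyzed serum and stem cell factor, which was part of every condition. The first series was kept with 0.5 µM beta-estradiol and given brequinar, an inhibitor of the pyrimidine synthesis enzyme DHODH, at 2 µM for 0, 6, 12, 24 or 48 h. The second series was washed and moved to medium without estrogen for 0, 6, 12, 24 or 48 h, called withdrawal below. The labels do not say whether the 0 h culture of the brequinar series received solvent. The conditions used here hold no untreated culture of 6 to 48 h, so an effect of time in culture cannot be told apart from either treatment.

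In a dividing cell the origin recognition complex, CDC6 and CDT1 load the ring-shaped MCM2-7 helicase onto origins in G1 phase, and geminin blocks further loading once S phase has begun. The kinase CDC7 with DBF4 then helps CDC45 and the GINS complex join the ring to form the active helicase, behind which polymerases alpha, epsilon and delta copy the strands. Many of these genes are classical targets of the E2F transcription factors, with transcription that peaks around the start of S phase.

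Each of the 10 conditions was 1 culture, so no difference has a replicate check and no test was run. The report rests on 12540 cells with a single barcode call, 528 to 1536 per culture. Summed per culture, these held 5236694 to 19931921 UMIs. Levels are counts scaled to 1000000 UMIs of the culture (CPM), where a floor of 3 counts stood at 0.151 to 0.573 CPM. Ratios and shares of cells carry, in parentheses, exact 95% intervals that cover counting error only. A gene counts as measured in a comparison when it reached 20 CPM in either culture, and as higher or lower when its CPM differed at least 1.5-fold. Statements that single out 1 gene of the list cover its measured genes. The 0 h cultures of both series give the only view of the spread between cultures of like treatment: over the 37 genes measured there, log2 ratios lay between -0.10 and 0.13, and none differed 1.5-fold, where 0.0546% of all genes were lower and 0% higher. All 11 myeloid leukemia markers reached 20 CPM in at least 1 culture. At 48 h of withdrawal 7 of them were lower and 4 higher than at its start, beside 40.7% and 21.5% of all genes. Flt3, Meis1 and Cd34 stood there at 6.27, 6.70 and 12.4 CPM. Erythroid markers summed to 1.02 to 17.4 CPM, fibroblast markers to 0 to 1.75 CPM and lymphoid markers to 52.0 to 179.5 CPM. Of the 8 lymphoid markers 2 reached 20 CPM in any culture, both higher at 24 h of brequinar, beside 29.2% of all genes. Trbc2 and Ncr1 stood at 0 counts throughout.

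Of the 44 genes, 37 were measured in every comparison. The histone chaperone subunit gene Chaf1a sat at the limit, at 19.0 CPM in the brequinar 0 h culture and 26.8 CPM at 12 h of brequinar, and counts as the 38th measured gene in the comparisons that hold brequinar at 12 or 24 h. Pole2, a polymerase epsilon subunit, sat just outside it, with at most 18.9 CPM. Gins3 reached at most 14.5 CPM. Orc1, Cdt1, Gins2 and Fen1 were nearly empty in the spliced counts, with 0 to 17 counts in any culture, and their levels are not read further. Whether reads of these genes were lost in how the spliced counts were made was not tested, so the near-zero values do not show that the genes were silent. Orc1, the largest origin recognition subunit, stood at 0.803, 0.610, 0.940, 0.654 and 0.764 CPM over the 5 times of brequinar and 0.913, 0.662, 0.461, 0.755 and 0.146 CPM of withdrawal. Cdt1, the loading factor that geminin blocks, stood at 0.151, 0.457, 0.125, 0.297 and 0.191 CPM and 0.0537, 0.165, 0.0921, 0.137 and 0 CPM, and Fen1, the flap nuclease, at 0.401, 0.533, 0.627, 0.357 and 0.191 CPM and 0.376, 0.248, 0.184, 0.343 and 0.146 CPM.

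**Figure D1:**
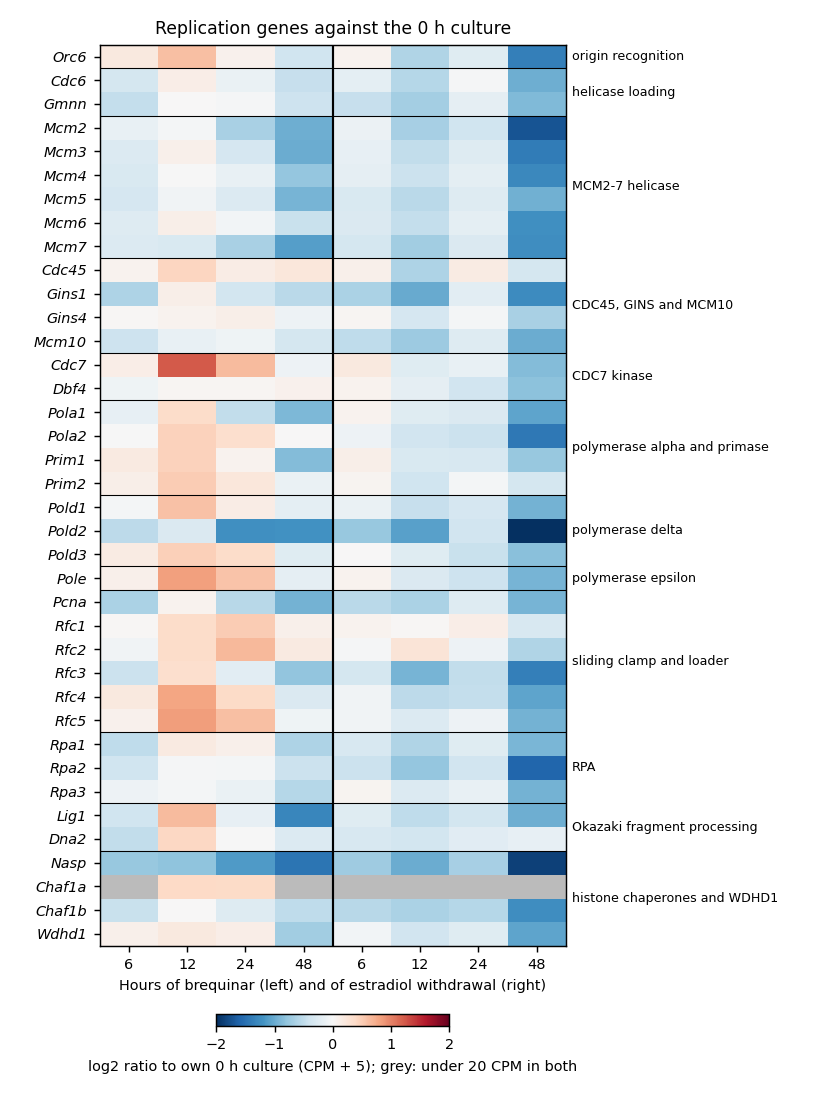
Each row is 1 replication gene and each column 1 culture, with color giving the log2 ratio of its level to the 0 h culture of its own series (CPM plus 5). Grey cells are genes under 20 CPM in both cultures. Red at 12 h of brequinar is strongest for Cdc7, and the withdrawal column at 48 h is blue for all 37 measured genes.

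The sum of all 44 genes followed different courses in the 2 series. It stood at 4671, 4046, 5365, 4538 and 3249 CPM at 0, 6, 12, 24 and 48 h of brequinar. Under withdrawal it stood at 4661, 4090, 3358, 3865 and 2172 CPM at the same times. Both sums were lower at 6 h, brequinar was above its start and withdrawal below it at 12 h, and both were lowest at 48 h. Of the 38 genes that reached 20 CPM in any culture, 25 had their highest level of the brequinar series at 12 h and 28 their lowest at 48 h. In the withdrawal series 25 had their highest level at 0 h and 35 their lowest at 48 h. The times of highest and lowest level were not counted over all genes, so these counts are not set apart from those of all genes.

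Counted gene by gene, few genes were past 1.5-fold in the 6 h cultures. Of 37 measured genes 4 were lower at 6 h of brequinar and none higher, against 4.97% and 8.82% of all measured genes. At 6 h of withdrawal 5 were lower and none higher, against 8.11% and 12.3%. Gins1, a subunit of the helicase activator GINS, and Nasp, a histone chaperone gene, were lower in both. The levels of both treatments at 6 h differed 1.5-fold for none of the 37 genes, against 1.45% of all genes lower and 1.9% higher in brequinar.

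After 12 h of brequinar 7 of 38 genes were higher and 1 was lower, against 13.5% and 4.67% of all genes, shares near the background, and the median log2 ratio was 0.18 beside 0.10 for all genes. The count of 7 dropped to 4 when cultures were scaled by the median of gene ratios, where 10.2% of all genes were higher. It stood at 12 when every cell weighed the same, beside 14.4% of all genes. Following 12 h of withdrawal 15 of 37 (40.5%) were lower and none higher, against 11.2% and 13.4%, with a median of -0.50 beside 0.01. After 24 h of brequinar 5 of 38 were lower and 4 higher, against 13.8% and 29.2%. Following 24 h of withdrawal 2 of 37 were lower and none higher, against 11.9% and 9.46%. The shares at 24 h thus lay at or below those of all genes in all 4 counts.

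After 48 h of brequinar 16 of 37 genes (43.2%) were lower and none higher, against 17.3% and 25.7% of all genes, and the median was -0.45 beside 0.04. Following 48 h of withdrawal 33 of 37 (89.2%) were lower and none higher, against 40.7% and 21.5%, and the median was -0.97 beside -0.33. Under median-of-ratios scaling the factor of that culture relative to its start was -0.35 on the log2 scale, so its ratios lay higher by that amount. With the cells weighted to the G2/M content of the 0 h culture, as described further on, 21 were lower in place of 33, beside 35.7% of all genes. With the median-of-ratios scaling 27 were lower, while the shares of all genes went to 25.6% lower and 30.7% higher. The 16 genes lower at 48 h of brequinar were all among the 33 lower at 48 h of withdrawal. With 33 of 37 genes lower there, most of any such set would fall among them, and the overlap over all genes was not counted. Beside this, 21 genes of neutrophil maturation went in sum from 620 to 85309 CPM over the 48 h of withdrawal and from 489 to 7620 CPM in brequinar, and their part in the lower levels was not tested. Comparisons within a series share their 0 h culture, so their counts are not independent of each other.

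Among the promoters of these genes, a larger share held words known to bind E2F factors than among all genes of the table. The RefSeq promoter table (build GRCm38.p6) held 36 of the 44 genes, matched by symbol. The words searched on both strands in the 250 bases before the annotated start were TTTCCCGC, TTTCGCGC, TTTGCCGC and TTTGGCGC, which can overlap when read from opposite strands. At least 1 was found for 8 of the 36 genes (22.2%), beside 2.16% of the 27025 genes of the table. The word CCAAT was found for 58.3% beside 37.5%, and TTTGAA, a cell cycle element word, for 19.4% beside 18.3%. The stretches printed here are those of the 4 genes where the stretch around the E2F words overlaps no annotated exon. In them the words are in capitals and all else in lower case. The stretches are printed 5′ to 3′ on the strand of the gene. A match is only a run of letters and does not show that a factor binds there.
Cdc6, chr11:98907983-98908050, plus strand: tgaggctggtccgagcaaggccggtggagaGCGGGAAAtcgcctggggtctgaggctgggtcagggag
Mcm5, chr8:75109326-75109397, plus strand: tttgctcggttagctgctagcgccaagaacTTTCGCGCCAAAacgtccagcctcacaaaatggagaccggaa
Mcm6, chr1:128359715-128359845, minus strand: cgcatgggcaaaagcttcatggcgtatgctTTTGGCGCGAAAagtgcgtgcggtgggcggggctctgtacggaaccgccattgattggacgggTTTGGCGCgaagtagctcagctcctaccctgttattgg
Pola1, chrX:93632256-93632323, minus strand: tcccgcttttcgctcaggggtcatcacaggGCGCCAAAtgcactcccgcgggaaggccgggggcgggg
The Cdc6 and Pola1 words begin 138 bases before the start. The Mcm5 run holds 2 overlapping words, the first 153 bases before the start, and Mcm6 holds 3, of which 2 overlap 110 bases before the start and 1 lies at 47 bases. The 6 measured genes with such a word had median log2 ratios of 0.13 at 12 h and -0.84 at 48 h of brequinar. The values were 0.37 and -0.42 for measured genes of the table without a word (25 and 24 genes). At 48 h of withdrawal the medians were -1.14 with and -0.96 without a word. With 6 genes these medians are a description and nothing was tested on them.

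Origin recognition was represented by Orc6, the smallest subunit of the complex, since Orc1 was nearly empty. Orc6 stood at 197, 225, 303, 210.4 and 148 CPM at 0, 6, 12, 24 and 48 h of brequinar. It stood at 191, 202, 124, 161 and 71.3 CPM at the same times of withdrawal. The 12 h culture was the highest of the brequinar series and the 48 h culture the lowest of both. Orc6 was 1.54-fold higher (1.47 to 1.60) at 12 h of brequinar and 1.54-fold lower (1.45 to 1.64) at 12 h of withdrawal, and the 12 h cultures differed 2.44-fold. At 48 h it was 1.33-fold lower (1.23 to 1.44) in brequinar and 2.69-fold lower (2.44 to 2.96) in withdrawal.

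Of the helicase loading genes, Cdc6, which brings the helicase to the origin complex, stood at 33.0, 24.8, 36.8, 29.6 and 22.7 CPM over the 5 times of brequinar, and in withdrawal at 30.9, 26.2, 19.1, 30.3 and 13.3 CPM. The printed Cdc6 promoter carries 1 E2F word. Gmnn, which encodes the loading inhibitor geminin, stood at 368, 262, 371, 361 and 276 CPM in brequinar and at 367, 265, 228, 324 and 197 CPM in withdrawal, in the same order of times. Both genes were lowest at 48 h of withdrawal, where Cdc6 was 2.33-fold lower (1.87 to 2.94) and Gmnn 1.86-fold lower (1.76 to 1.98). At 12 h of withdrawal Cdc6 was 1.62-fold lower (1.38 to 1.91) and Gmnn 1.61-fold lower (1.54 to 1.69), whereas at 12 h of brequinar they were at 1.12 and 1.01 times their start, with a direction of Gmnn that turned under at least 1 alternative. Gmnn dipped at 6 h in both series, to 1.41-fold and 1.38-fold below the start. At 24 h it stood at 0.979 times its start in brequinar and 0.882 times in withdrawal.

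The 6 genes of the MCM2-7 ring, which unwinds the parental strands, had a summed level of 1035, 856, 1016, 818 and 561 CPM over the 5 times of brequinar. Under withdrawal the sum was 1022, 858, 691, 850 and 404 CPM. The brequinar sum at 12 h was 0.981 times the 0 h sum (0.961 to 1.00), and the withdrawal sum 1.48-fold lower (1.44 to 1.52). Unlike the sums of origin recognition, the clamp loader and polymerase epsilon, the helicase sum at 12 h of brequinar did not exceed its start. The sums of RPA and of the histone chaperones with WDHD1 did not either, at 0.986 and 0.727 times their start.

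Mcm2 stood at 107, 96.01, 104, 66.7 and 51.9 CPM in brequinar and 108, 99.5, 66.6, 80.8 and 29.3 CPM in withdrawal over the 5 times. Mcm3 stood at 231, 191, 249, 182 and 114 CPM in brequinar and 216, 193, 152, 180.4 and 78.8 CPM in withdrawal, in the same order. Mcm4 stood at 141, 113, 139.7, 127 and 80.4 CPM in brequinar and 139, 122, 101, 120.1 and 53.9 CPM in withdrawal. For these 3 subunits the 48 h cultures were the lowest of each series, and the withdrawal culture was the lower of the 2. Mcm5 stood at 133, 104, 126, 109 and 67.4 CPM in brequinar and 135, 108, 91.5, 112 and 66.6 CPM in withdrawal. Mcm6 stood at 201, 167, 218, 193 and 146 CPM in brequinar and 201, 163, 144, 175 and 83.5 CPM in withdrawal. Mcm7 stood at 223, 184, 179.5, 141 and 102 CPM in brequinar and 223, 173, 136, 181 and 91.8 CPM in withdrawal. The 48 h cultures of both series held nearly the same level of Mcm5, at 1.01 times the withdrawal level (0.879 to 1.17), and Mcm6 was 1.75-fold higher (1.57 to 1.96) in brequinar.

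After 48 h of brequinar Mcm7 was 2.20-fold lower (2.01 to 2.41), Mcm2 2.06-fold lower (1.81 to 2.34), Mcm3 2.03-fold lower (1.86 to 2.21), Mcm5 1.97-fold lower (1.76 to 2.21) and Mcm4 1.75-fold lower (1.58 to 1.94). Mcm6 was the 1 ring gene that did not pass 1.5-fold there, at 1.37-fold lower (1.27 to 1.49). Following 48 h of withdrawal all 6 were lower, from 3.68-fold lower (3.19 to 4.28) for Mcm2 to 2.02-fold lower (1.83 to 2.24) for Mcm5. Mcm7 stood apart at 12 h of brequinar, where it was 1.24-fold lower (1.19 to 1.303) while Mcm3 and Mcm6 were 1.08-fold higher (1.03 to 1.12) and 1.08-fold higher (1.04 to 1.13). The directions of Mcm2, Mcm4 and Mcm5 at that time turned under at least 1 alternative scaling or weighting.

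The genes that turn the loaded ring into an active helicase differed among themselves. Cdc45, a core component of the active helicase, stood at 50.3, 53.2, 69.5, 56.4 and 59.4 CPM in brequinar and 49.6, 53.4, 30.5, 56.4 and 37.9 CPM in withdrawal. Gins1, a GINS subunit, stood at 35.2, 21.1, 38.8, 26.2 and 22.7 CPM in brequinar and 33.2, 19.8, 14.0, 27.9 and 10.9 CPM in withdrawal. Mcm10, an activating factor that binds the helicase, stood at 33.4, 23.7, 29.8, 31.2 and 25.2 CPM in brequinar and 33.7, 22.1, 18.3, 27.5 and 14.4 CPM in withdrawal. Gins1 was 2.37-fold lower (1.98 to 2.85) at 12 h of withdrawal, a fold that does not differ beyond counting error from that of Pold2 given below, and it was 3.04-fold lower (2.39 to 3.92) at 48 h. Cdc45 was 1.18-fold higher (1.04 to 1.34) at 48 h of brequinar, the highest ratio of all 37 genes at that time, and 1.62-fold lower (1.43 to 1.85) at 12 h of withdrawal. Cdc45 at 48 h of withdrawal was 1.31-fold lower (1.14 to 1.51) as measured, but above its start under at least 1 alternative. Mcm10 was 1.84-fold lower (1.56 to 2.16) at 12 h and 2.33-fold lower (1.89 to 2.91) at 48 h of withdrawal. Gins4, another GINS subunit, stayed within 1.5-fold of its start at every time of brequinar and was 1.64-fold lower (1.44 to 1.87) at 48 h of withdrawal.

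The kinase that fires licensed origins held the measured gene of the list with the highest ratio to its 0 h level. Cdc7, its catalytic subunit, stood at 43.2, 47.9, 108, 69.8 and 39.7 CPM over the 5 times of brequinar and at 43.4, 50.5, 35.8, 38.5 and 21.4 CPM of withdrawal. It was 2.49-fold higher (2.30 to 2.71) at 12 h and 1.62-fold higher (1.48 to 1.77) at 24 h of brequinar, and back at 0.920 times the 0 h level (0.786 to 1.07) at 48 h. Across the alternatives its ratio at 12 h lay between 2.37 and 2.69. Dbf4, the regulatory subunit, stood at 211, 198, 217, 218 and 224 CPM in brequinar and 220.1, 230.2, 194, 168 and 122 CPM in withdrawal. Dbf4 stayed within 1.5-fold of its start throughout brequinar, while at 48 h of withdrawal Cdc7 was 2.03-fold lower (1.70 to 2.43) and Dbf4 1.80-fold lower (1.67 to 1.94). The 2 subunits of 1 kinase thus had different courses in the brequinar series.

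Polymerase alpha and primase start each new strand. Pola1, the catalytic polymerase subunit, stood at 48.6, 43.1, 63.7, 32.9 and 23.7 CPM in brequinar and 44.2, 46.7, 36.4, 35.1 and 18.7 CPM in withdrawal. Pola2, its accessory subunit, stood at 38.0, 37.8, 54.0, 49.4 and 38.4 CPM in brequinar and 39.3, 36.1, 29.1, 27.9 and 11.5 CPM in withdrawal. Prim2, the large primase subunit, stood at 35.2, 38.6, 52.5, 42.0 and 31.5 CPM in brequinar and 35.3, 37.1, 25.5, 34.3 and 26.5 CPM in withdrawal. The first 2 parted at 48 h of brequinar, where Pola1 was 2.05-fold lower (1.70 to 2.49) and Pola2 at 1.01 times the 0 h level (0.860 to 1.18). At 48 h of withdrawal Pola2 was 3.41-fold lower (2.70 to 4.36), so that the 48 h cultures differed 3.33-fold in Pola2, the largest difference between the series at that time. After 12 h of brequinar all 4 genes of the complex were above their start, from 1.31-fold higher (1.201 to 1.43) for Pola1 to 1.49-fold higher (1.35 to 1.65), just short of the threshold, for Prim2. Prim1, the small primase subunit, was 1.40-fold higher (1.302 to 1.49) there and 1.93-fold lower (1.67 to 2.24) at 48 h. Prim2 at 48 h of withdrawal was 1.33-fold lower (1.13 to 1.58), a direction that turned under at least 1 alternative.

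Polymerase delta makes most of the lagging strand. Its second subunit gene Pold2 stood at 88.1, 59.9, 71.1, 34.9 and 35.1 CPM in brequinar and 85.6, 48.5, 37.8, 64.5 and 17.6 CPM in withdrawal. Pold1, the catalytic subunit, stood at 44.3, 43.0, 69.1, 49.4 and 37.8 CPM in brequinar and 43.7, 39.6, 30.4, 33.4 and 20.4 CPM in withdrawal. Pold3, an accessory subunit, stood at 59.8, 67.97, 84.9, 78.7 and 50.0 CPM in brequinar and 64.5, 64.5, 53.6, 46.1 and 34.0 CPM in withdrawal. Pold2 had the largest fold against 0 h of the measured genes of the list, 4.86-fold lower (4.04 to 5.89) at 48 h of withdrawal, and was 2.52-fold lower (2.30 to 2.78) at 24 h and 2.51-fold lower (2.15 to 2.93) at 48 h of brequinar. Its withdrawal course was not steady, with 2.27-fold lower (2.03 to 2.53) at 12 h and 1.33-fold lower (1.22 to 1.44) at 24 h. Pold2 was also the 1 gene lower in brequinar than in withdrawal at 24 h, 1.85-fold lower (1.67 to 2.05). Pold1 and Pold3 went the other way at 12 h of brequinar, where Pold1 was 1.56-fold higher (1.43 to 1.71) and Pold3 1.42-fold higher (1.31 to 1.53) while Pold2 was 1.24-fold lower (1.15 to 1.34).

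Polymerase epsilon copies the leading strand. Pole, its catalytic subunit, stood at 44.4, 48.2, 82.1, 68.6 and 38.6 CPM over the 5 times of brequinar and at 42.4, 44.7, 33.6, 30.7 and 20.0 CPM of withdrawal. It was 1.85-fold higher (1.70 to 2.02) at 12 h and 1.55-fold higher (1.42 to 1.69) at 24 h of brequinar, and 2.12-fold lower (1.77 to 2.56) at 48 h of withdrawal. At 24 h the brequinar culture was 2.24-fold higher (2.00 to 2.50) than the withdrawal culture, the largest difference of the list between the series at that time. Pole2, under the measurement limit throughout, stood at 14.9, 13.2, 18.9, 13.1 and 8.59 CPM in brequinar and 15.4, 13.5, 9.67, 15.9 and 8.01 CPM in withdrawal.

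The clamp PCNA holds the polymerases on the strand. Pcna stood at 111, 69.8, 117, 73.9 and 55.8 CPM in brequinar and 110.2, 74.1, 69.3, 90.9 and 55.7 CPM in withdrawal. It was 1.60-fold lower (1.48 to 1.73) at 6 h of brequinar, 1.05 times the 0 h level (0.990 to 1.12) at 12 h and 2.00-fold lower (1.77 to 2.26) at 48 h. At 48 h both series held the same Pcna level within counting error, at a ratio of 1.00 (0.857 to 1.17).

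Of the clamp loader genes, Rfc1, the large subunit, stood at 158, 161, 205, 226 and 169.8 CPM in brequinar and 158, 166, 161, 173 and 125 CPM in withdrawal. Rfc2 stood at 243, 231, 314, 383 and 275 CPM in brequinar and 240.1, 237, 289, 224 and 156 CPM in withdrawal. Rfc3 stood at 109, 79.0, 138, 93.1 and 61.1 CPM in brequinar and 106, 81.8, 53.3, 73.3 and 37.9 CPM in withdrawal. Rfc4 was 1.76-fold higher (1.68 to 1.84) and Rfc5 1.81-fold higher (1.72 to 1.91) at 12 h of brequinar, while at 24 h Rfc2 was 1.58-fold higher (1.52 to 1.64) and Rfc5 1.54-fold higher (1.47 to 1.63). Rfc3 was 1.27-fold higher (1.198 to 1.35) at 12 h and 1.78-fold lower (1.58 to 2.01) at 48 h of brequinar, and 1.98-fold lower (1.80 to 2.18) at 12 h of withdrawal. Rfc2 was the 1 gene of the list above its start beyond counting error at 12 h of withdrawal, 1.203-fold higher (1.15 to 1.26). Rfc1 and Rfc2 kept close to their starts at 48 h of brequinar, at 1.08 and 1.13 times, and had the smaller folds of the loader at 48 h of withdrawal. Rfc2 was 1.54-fold lower (1.44 to 1.64) there and Rfc1 1.26-fold lower (1.17 to 1.37), the latter with a direction that turned under at least 1 alternative.

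RPA coats single-stranded DNA behind the helicase. Rpa1, the large subunit, stood at 47.8, 32.1, 54.5, 51.4 and 29.6 CPM in brequinar and 46.9, 36.7, 29.3, 39.0 and 22.6 CPM in withdrawal. Rpa2 stood at 136, 102, 133, 132 and 99.9 CPM in brequinar and 137, 101, 78.6, 104 and 42.3 CPM in withdrawal. Rpa3 stood at 425, 396, 413, 385 and 283 CPM in brequinar and 425, 442, 351, 382 and 218 CPM in withdrawal. None of the 3 was 1.5-fold from its start before 48 h of brequinar. At 48 h Rpa1 was 1.62-fold lower (1.36 to 1.93), Rpa3 1.501-fold lower (1.42 to 1.59), right at the threshold, and Rpa2 1.36-fold lower (1.24 to 1.498). After 48 h of withdrawal the largest fold was that of Rpa2, 3.25-fold lower (2.88 to 3.68), beside Rpa1 2.08-fold lower (1.75 to 2.48) and Rpa3 1.95-fold lower (1.85 to 2.07).

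Among the genes that join Okazaki fragments, Lig1, the ligase, stood at 164, 123, 256, 146 and 63.2 CPM in brequinar and 164, 138, 113, 125 and 81.0 CPM in withdrawal. Within the brequinar series it was 1.56-fold higher (1.49 to 1.63) at 12 h and 2.59-fold lower (2.32 to 2.91) at 48 h. It was the gene with the lowest ratio of brequinar to withdrawal at 48 h, 1.28-fold lower (1.12 to 1.47), a direction that turned under at least 1 alternative. Dna2, a nuclease and helicase that trims flaps, stood at 30.002, 20.0, 41.5, 29.97 and 23.9 CPM in brequinar and 26.9, 20.5, 19.9, 22.3 and 23.6 CPM in withdrawal. Dna2 was 1.503-fold lower (1.298 to 1.74) at 6 h of brequinar, right at the threshold, and the 1 gene at 48 h of withdrawal whose interval reached its start, at 0.876 times the 0 h level (0.729 to 1.05).

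Nasp, a chaperone of histone H3, was lower in every treated culture. It stood at 308, 181, 175, 138 and 109 CPM in brequinar and 312, 189, 155, 195 and 82.0 CPM in withdrawal, below the start of its series already at 6 h. Its folds were 1.70-fold lower (1.62 to 1.78) and 1.65-fold lower (1.57 to 1.73) at 6 h and 2.84-fold lower (2.60 to 3.10) and 3.81-fold lower (3.49 to 4.16) at 48 h. Nasp was the 1 gene lower at 12 h of brequinar, 1.76-fold lower (1.68 to 1.84). Chaf1b, a subunit of the histone depositing complex CAF-1, stood at 60.5, 43.0, 61.2, 49.9 and 41.2 CPM in brequinar and 59.6, 39.0, 36.7, 38.4 and 22.3 CPM in withdrawal. Wdhd1, which ties polymerase alpha to the helicase, stood at 44.6, 48.5, 51.6, 49.2 and 25.6 CPM in brequinar and 41.3, 39.7, 30.6, 34.4 and 17.2 CPM in withdrawal. Chaf1b was 1.55-fold lower (1.40 to 1.72) at 24 h of withdrawal, where Nasp was 1.60-fold lower (1.53 to 1.68), and these were the 2 genes lower at that time. Wdhd1 passed 1.5-fold at 48 h of both series, 1.74-fold lower (1.45 to 2.11) and 2.40-fold lower (1.98 to 2.94).

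**Figure D2:**
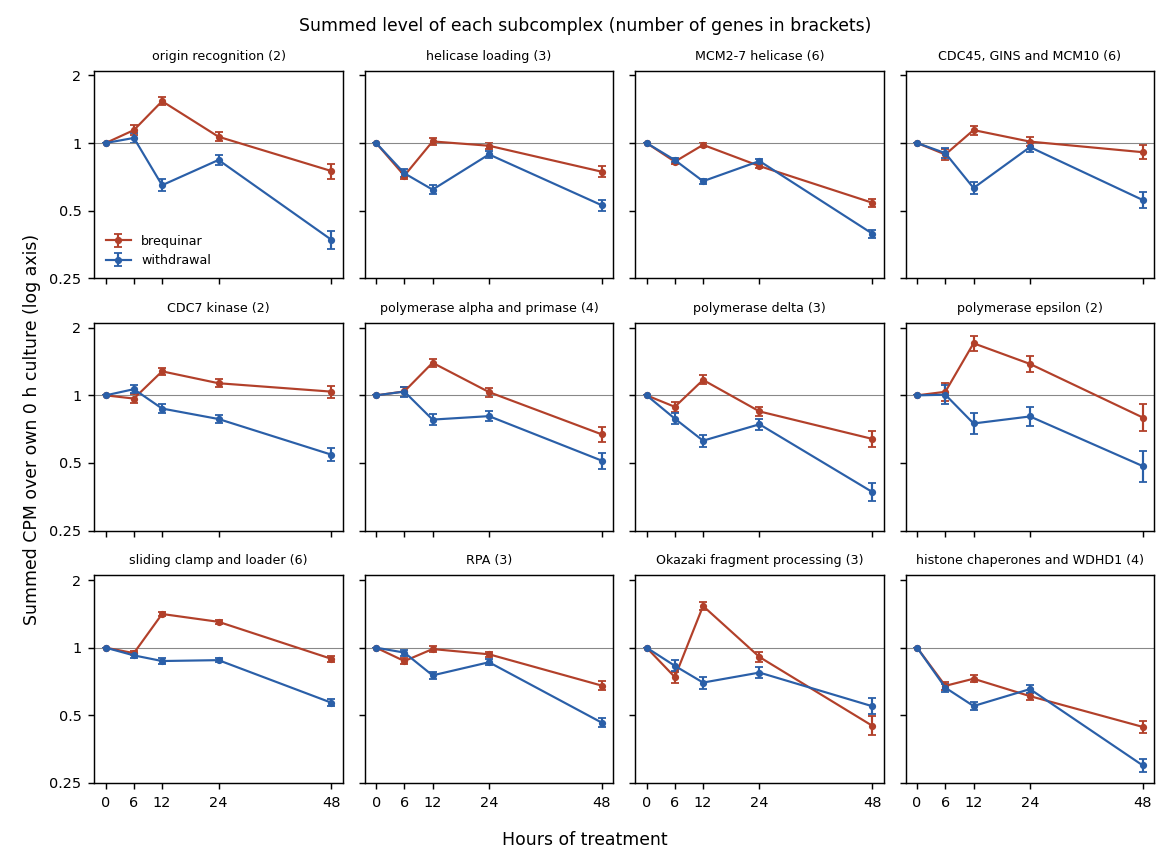
Each panel sums the CPM of 1 subcomplex and divides by the sum at 0 h of the same series, on a log axis against hours of treatment, with exact 95% intervals for counting error. At 12 h the brequinar line lies above the withdrawal line in all 12 panels, and at 48 h in all but Okazaki fragment processing.

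The largest contrast between the treatments was at 12 h. There 29 of 38 genes (76.3%) were higher in brequinar than in withdrawal and none was lower, against 13.2% and 7.33% of all genes. All 38 ratios were above 1 as measured, with a median log2 of 0.72 beside 0.09 for all genes. That of Dbf4 turned under at least 1 alternative. The largest were Cdc7 at 3.004-fold higher (2.69 to 3.36), Gins1 at 2.77-fold higher (2.32 to 3.33) and Rfc3 at 2.59-fold higher (2.36 to 2.84), and the smallest Rfc2 at 1.09-fold higher (1.04 to 1.14). Across the alternatives at 1.5-fold the count lay between 24 and 33, and with a 2-fold threshold it was 12, beside 3.84% of all genes.

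Set against their own starts, the sides of this contrast were unlike. The share of genes higher at 12 h of brequinar, 18.4%, lay near the 13.5% of all genes. The share lower at 12 h of withdrawal, 40.5%, lay above the 11.2% of all genes. The 7 genes higher at 12 h of brequinar were Cdc7, Pole, Rfc5, Rfc4, Pold1, Lig1 and Orc6, with ratios of 2.49, 1.85, 1.81, 1.76, 1.56, 1.56 and 1.54 to their start. Of these, Orc6 was also among the 15 genes lower at 12 h of withdrawal. The other 14 were Gins1, Pold2, Nasp, Rfc3, Mcm10, Rpa2, Mcm7, Chaf1b, Cdc45, Cdc6, Mcm2, Gmnn, Rpa1 and Pcna, from 2.37-fold for Gins1 to 1.59-fold for Pcna. At 24 h the contrast was narrower, with 8 of 38 genes higher and 1 lower in brequinar, against 29.6% and 8.05%. The 8 were Pole, Cdc7, Pola2, Rfc4, Rfc2, Pold3, Chaf1a and Rfc5, from 2.24-fold for Pole to 1.60-fold for Rfc5.

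**Figure D3:**
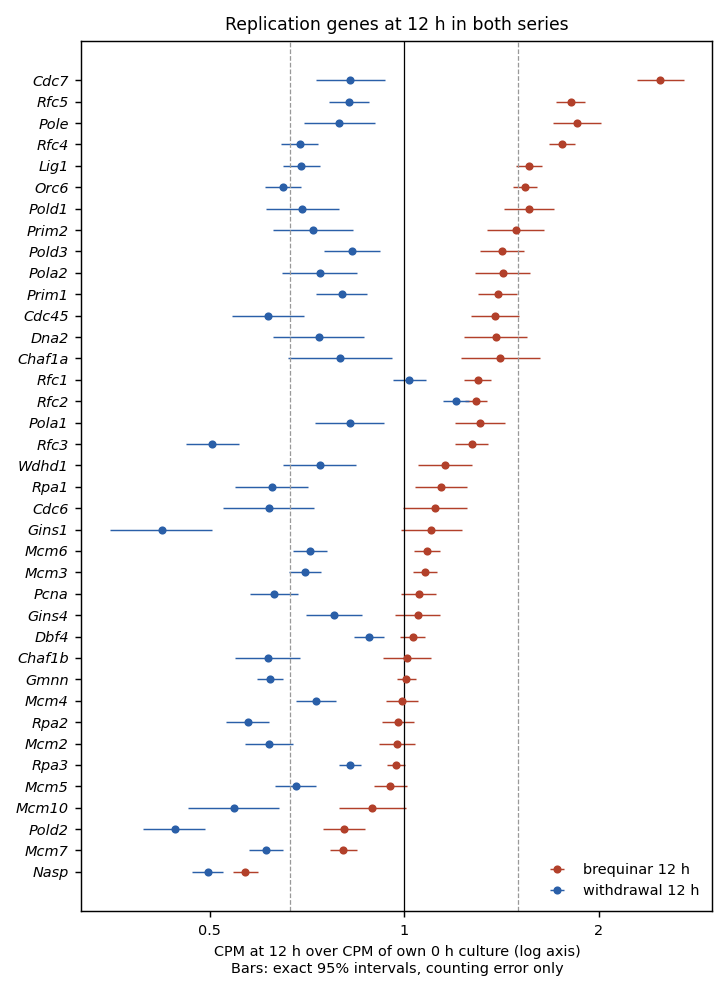
Points give the level of each of 38 genes at 12 h over its own 0 h culture on a log axis, for brequinar and for withdrawal, with exact 95% intervals for counting error and dashed lines at 1.5-fold. The brequinar point lies to the right of the withdrawal point for every gene, and the genes furthest right are Cdc7, Pole, Rfc5 and Rfc4.

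At 48 h 19 of 37 genes (51.4%) were higher in brequinar than in withdrawal and none was lower, against 37.6% and 8.57% of all genes, and the median was 0.59 beside 0.34. This count depended on scaling and weighting. Weighting by G2/M content gave 5 higher and 3 lower, while all genes went to 30.2% higher and 7.31% lower. With median-of-ratios scaling 6 genes were higher and 1 lower, while all genes went to 18.8% higher and 19.0% lower. Under neither was the share of higher genes above that of all genes. Pola2, Rpa2, Gins1 and Orc6 had the largest ratios, 3.33, 2.36, 2.08 and 2.07. Of the 33 genes lower at 48 h of withdrawal, 17 did not pass 1.5-fold at 48 h of brequinar, among them Orc6, Cdc7, Dbf4, Pole, Pola2 and Rpa2. The 4 genes within 1.5-fold at 48 h of withdrawal were Dna2, Rfc1, Cdc45 and Prim2.

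Levels per cell were compared after thinning each cell to 2500 UMIs, which left out 13 to 249 shallower cells per culture. Before thinning, the median depth was 14849 and 15229 UMIs per cell in the 0 h cultures of brequinar and withdrawal, and at 48 h it was 9782 in brequinar and 6509 in withdrawal. A median cell held 11, 9, 13, 11 and 7 UMIs of the 44 genes over the 5 times of brequinar and 11, 10, 7, 9 and 3 of withdrawal. The whole distribution lay higher at 12 h of brequinar, where 3.70% of cells (2.75 to 4.86) had fewer than 6 UMIs, the 10th percentile of the start, beside 8.79% at 0 h. At 48 h 33.8% (29.7 to 38.1) of brequinar cells and 71.6% (68.5 to 74.6) of withdrawal cells lay below that level.

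The withdrawal cells at 48 h were also the most unequal. Their 10th to 90th percentile ran from 1 to 12 UMIs, and the variance was 4.99 times the mean, beside 2.64 at 48 h of brequinar and 1.90 and 1.66 in the 0 h cultures. In that culture 9.91% of cells held no UMI of the 44 genes, beside 1.17% at 48 h of brequinar.

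**Figure D4:**
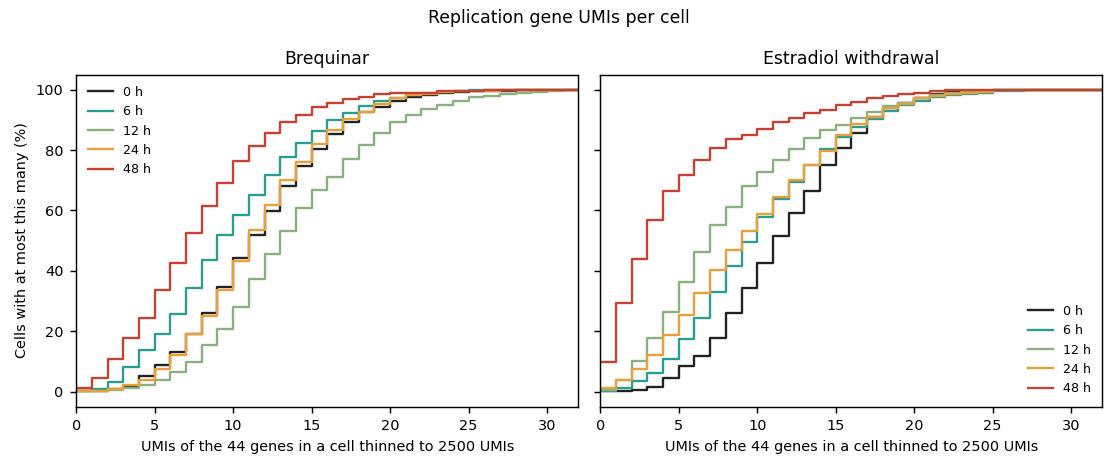
Lines give the cumulative percentage of cells against the number of UMIs of the 44 genes in a cell thinned to 2500 UMIs, 1 line per time, for brequinar on the left and withdrawal on the right. The 12 h line of brequinar lies furthest right, with a median of 13, and the 48 h line of withdrawal furthest left, with a median of 3.

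Cells of each culture were then ranked by the share of their UMIs from 53 G2/M genes, none of them among the 44, and divided into 3 equal groups. These are ranges of a score and not cell types. In both 0 h cultures the replication genes were highest where G2/M content was lowest, at 5402, 5079 and 3883 CPM from the low to the high group of the brequinar series and 5462, 5079 and 3849 CPM of the withdrawal series. Following 48 h of withdrawal the order of these groups was turned around, with 749, 2003 and 3164 CPM, so the high group held 4.22 times the level of the low group (3.99 to 4.47). At 48 h of brequinar the values were 2519, 3631 and 3425 CPM, a ratio of 1.36 (1.31 to 1.42). These groups are cut within each culture. With limits set on the 0 h cultures, the low, middle and high ranges at 48 h of withdrawal stood at 1420, 4384 and 2848 CPM. At the withdrawal start they stood at 5428, 5122 and 3881 CPM. With those limits the low range was still the lowest at 48 h of withdrawal, but the middle range was the highest. Depth moved with the ranking: from the low to the high group the median cell held 13011, 14909 and 18675 UMIs at the withdrawal start and 5789, 6035 and 9663 UMIs at 48 h of withdrawal, and its part in the order was not tested.

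The change of order ran through the subcomplexes. MCM2-7 helicase genes stood at 1342, 1146 and 731 CPM from the low to the high group at the withdrawal start and at 89.9, 465 and 560.1 CPM at 48 h. Polymerase alpha and primase genes went from 226, 218 and 167 CPM to 26.4, 64.8 and 172 CPM. The clamp and loader genes went from 1020.2, 1003 and 765 CPM to 246, 514 and 686 CPM. Cdc7 and Dbf4 together were an exception at the start, where they already stood highest in the high group, at 195, 245 and 319 CPM. In all of these the level at 48 h of withdrawal was lowest in the low group.

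The low group was also below the high group at 12 h of withdrawal, where the groups stood at 2484, 4423 and 3266 CPM, and, less so, at 6 h of brequinar, at 3372, 5024 and 3730 CPM. With limits set on the 0 h cultures, the low range at 6 h of brequinar was instead above the high range, at 3840 and 3465 CPM. At 12 h of withdrawal it stayed below the high range with those limits, at 3070 and 3259 CPM. The low group was again above the high group at 24 h of withdrawal, at 3629, 4829 and 3326 CPM, so the order did not shift steadily with time. Following 12 h of brequinar the order was that of the start, at 5739, 5573 and 4911 CPM. Ranked instead by the 21 genes of neutrophil maturation, the groups at 48 h of withdrawal differed less, at 2306, 2464 and 1719 CPM from low to high, and those at 48 h of brequinar stood at 3079, 3298 and 3369 CPM. The ranking genes themselves held 8507, 43729 and 207194 CPM in the 48 h withdrawal groups. A larger share of these leaves a smaller share to all other genes, and its part in the order was not tested.

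**Figure D5:**
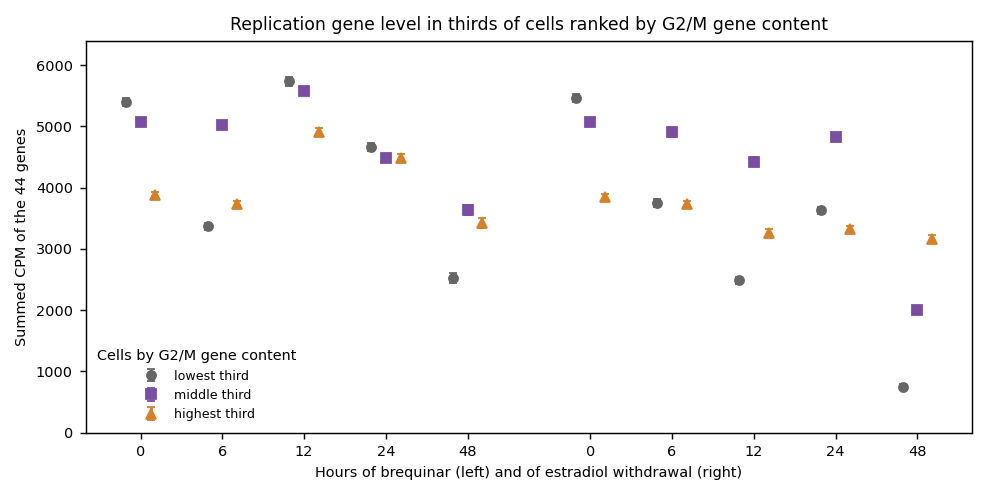
Points give the summed CPM of the 44 genes in 3 equal groups of cells ranked by G2/M gene content, for each culture, with exact 95% intervals for counting error. The low group is the highest at 0 h of both series, at 5402 and 5462 CPM, and by far the lowest at 48 h of withdrawal, at 749 CPM.

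The make-up of the cultures by G2/M content moved with the treatments. With limits set on the 0 h cultures, the high range held 32.3, 21.1, 26.6, 73.1 and 66.9% of cells over the 5 times of brequinar, and the low range 67.1% of cells at 48 h of withdrawal beside 32.2% at its start. The middle range held 52 cells (9.85%) at 48 h of brequinar and 80 cells (8.31%) at 48 h of withdrawal. At the starts it held 33.4% and 33.3% of cells, so weighted counts at 48 h lean on few cells of this range. With the ranges weighted as at the start, 21 in place of 33 genes were lower at 48 h of withdrawal, 17 in place of 16 at 48 h of brequinar and 12 in place of 15 at 12 h of withdrawal. The shares of all genes lower under this weighting were 35.7%, 18.9% and 9.89% in the same order. The count of 29 genes higher in brequinar at 12 h became 24 and that of 19 at 48 h became 5, with 3 lower. Of all genes 11.9% were higher at 12 h under this weighting, and 30.2% higher and 7.31% lower at 48 h. The 12 h count thus moved by less than 1.5 times under this weighting and the 48 h count by more.

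A further 40 genes of replication, among them the other ORC subunits, fork protection factors and small polymerase subunits, were described as a list, of which Top2a is also among the 53 G2/M genes. At 12 h of brequinar 5 of 30 measured were higher and none lower, beside 13.5% and 4.67% of all genes, with a median log2 of 0.27. The largest were Clspn, a fork checkpoint mediator, 2.04-fold higher (1.90 to 2.19), Pole4, a polymerase epsilon subunit, 1.83-fold higher (1.75 to 1.91), Asf1b, a histone chaperone, 1.80-fold higher (1.71 to 1.91), and Mtbp, an origin firing factor, 1.78-fold higher (1.53 to 2.07). After 48 h of withdrawal 24 of 29 were lower and 1 was higher, beside 40.7% and 21.5% of all genes, with a median of -0.84. Orc2, an origin recognition subunit, was 6.08-fold lower (4.30 to 8.87) there, Supt16, a histone chaperone of FACT, 3.55-fold lower (3.20 to 3.96), and Hells, a chromatin remodeler, 3.44-fold lower (3.09 to 3.84). The 1 higher gene was Pold4, the smallest polymerase delta subunit, 2.52-fold higher (2.41 to 2.64). In brequinar at 48 h 7 of 28 were lower and 1 higher, beside 17.3% and 25.7% of all genes. The higher gene was again Pold4, 1.62-fold higher (1.53 to 1.72).

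Genes that supply or remove deoxynucleotides, the substrate of replication, numbered 12. After 12 h of brequinar 3 of 11 measured were higher and 2 lower, beside 13.5% and 4.67% of all genes, with a median of 0.05 and with Rrm2b, a ribonucleotide reductase subunit, 2.07-fold higher (1.75 to 2.46), and Dck, the deoxycytidine kinase, 1.78-fold higher (1.65 to 1.92). Following 48 h of brequinar 6 of 10 were lower and 1 higher, beside 17.3% and 25.7%. Tyms, which makes thymidylate, was 3.25-fold lower (3.02 to 3.50) there. At 48 h of withdrawal 8 of 10 were lower and 1 higher, beside 40.7% and 21.5%, with Dctpp1, a nucleotide pyrophosphatase, 4.40-fold lower (4.08 to 4.77) and Shmt1, a serine hydroxymethyltransferase, 4.38-fold lower (3.57 to 5.43). The higher gene at 48 h was Samhd1, which breaks deoxynucleotides down, 3.34-fold higher (2.85 to 3.90) in brequinar and 7.85-fold higher (6.85 to 9.03) in withdrawal.

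The 13 E2F and RB family genes, which hold regulators of replication gene transcription, gave 8 or 9 measured genes in each comparison. Following 12 h of brequinar 2 of 8 were higher and none lower, beside 13.5% and 4.67% of all genes. These were Tfdp2, a partner of E2F factors, 2.02-fold higher (1.84 to 2.23), and E2f1, an activating E2F, 1.86-fold higher (1.69 to 2.04). After 48 h of withdrawal 5 of 9 were lower and 1 higher, beside 40.7% and 21.5%, with the largest fold for E2f4, 2.54-fold lower (2.21 to 2.94), and E2f2 was 5.58-fold higher (4.30 to 7.30). With so few genes these shares are not set apart from those of all genes. E2f1 stayed at 0.944 times the 0 h level (0.807 to 1.10) at 48 h of withdrawal and was 1.60-fold higher (1.40 to 1.82) at 48 h of brequinar.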

How the data were processed

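The authors deposited raw UMI counts of genes in cell barcodes. Their spliced matrix was used, and their unspliced matrix was not used here. Per the submitters' processing notes kallisto 0.46, bustools 0.39.4 and Cell Ranger were used, with no role given for each. The genome build, like the annotation, is not given in the sources used here. Gene symbols came from a reference table, which matched 54723 of 54838 gene IDs. The barcode calls are the authors', as deposited. Of 15582 barcodes, those called doublet (2777, 17.8%) or negative (265) were left out, and no doublet caller was run in addition. Among them, 26 listed more than once were all called negative. Since nothing in a barcode tells its run, cells of both runs could not be separated and barcodes that the runs share could not be counted.

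For each culture the counts of its cells were added up and scaled to 1000000. A fold is a ratio of CPM with an exact conditional binomial (Clopper-Pearson) interval at 95%. Medians are of log2 ratios with 5 CPM added to both levels. The minimum of 20 CPM and the fold of 1.5 were varied, as were scaling, cell filters and weights. UMIs of different genes are not scaled for length or capture, so levels are compared between cultures and not between genes. Sums over a subcomplex are led by its most abundant genes. Cells were thinned to 2500 UMIs without replacement. Motif words were counted in the RefSeq promoter table. The ratio step was tested on simulated data. Python 3.11.15, numpy 2.4.6, scipy 1.17.1, pandas 2.3.3 and matplotlib 3.10.9 were used.

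The genes and lists were chosen with earlier results of these data known. Named by rule were the genes with the lowest and highest ratio at 48 h in each subcomplex and series, the MCM genes and Cdc6, Cdt1, Gmnn, Mcm10, Pcna, Orc1, Pola1, Pole2, Lig1, Fen1 and Nasp, with the others given by single ratios. Of each other list up to 4 measured genes with the largest ratios were named, of which 1 is not reported here. E2f1 was given at 48 h after its values were seen.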

Additional observations from a re-analysis of the deposited data

How the results depend on the processing

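No paired analysis was possible because each condition was 1 culture, and for the same reason no replicate could be left out. The 24 counts of lower or higher genes stayed within 1.5 times with a minimum of 5 CPM, with cells of 2500 UMIs or more, without cells of 10% or more mitochondrial UMIs, without the 5% of cells with the most UMIs and with 5% of free RNA removed. With a 2-fold threshold 0 genes were lower and 1 higher at 12 h of brequinar, 2 lower and 0 higher at 24 h and 7 lower at 48 h. For all genes this threshold gave 0.75% lower and 3.52% higher at 12 h of brequinar. The shares were 5.54% lower and 14.7% higher at 24 h of brequinar, and 5.601% lower at its 48 h. The same threshold gave 0 lower at 6 h of either treatment, and 3 at 12 h and 0 at 24 h of withdrawal. Of all genes 0.547% were lower at 6 h of brequinar, and 1.86%, 2.33% and 3.09% at 6, 12 and 24 h of withdrawal. Brequinar was then higher than withdrawal for 12 genes at 12 h, 1 at 24 h (0 lower) and 4 at 48 h. The shares of all genes were 3.84%, 13.6% (2.12% lower) and 17.2%. Median-of-ratios scaling gave 4 higher at 12 h and 1 higher at 24 h of brequinar and 1 lower at 24 h of withdrawal. The shares of all genes were 10.2%, 24.6% and 9.004% in the same order. Between the treatments this scaling gave 2 lower at 24 h, beside 13.4% of all genes, and 1 lower and 6 higher at 48 h. With every cell weighted the same, 12 were higher at 12 h of brequinar and 3 lower at 6 h of withdrawal, beside 14.4% and 7.55% of all genes. G2/M weighting gave 2 lower at 24 h of brequinar, 21 lower at 48 h of withdrawal, and 3 lower and 5 higher between the treatments at 48 h. For all genes it gave 13.4% and 35.7% lower in those cultures, and 7.31% lower and 30.2% higher between the treatments. With no minimum level 1 gene was higher at 6 h of brequinar, 1 at its 48 h and 1 at 12 h of withdrawal, and between the treatments 2 were higher at 6 h and 1 lower at 12 h. The shares of all genes were 20.2%, 32.5% and 23.4%, and between the treatments 8.16% and 14.3%. For all genes median-of-ratios scaling changed the split at 48 h of withdrawal from 40.7% lower and 21.5% higher to 25.6% and 30.7%, and between the treatments from 8.57% and 37.6% to 19.0% and 18.8%. The median log2 ratio at 24 h of brequinar reversed from -0.02 to 0.056 with G2/M weighting, and that between the treatments at 6 h from -0.01 to 0.010 with cells of 2500 UMIs or more and to 0.013 without cells rich in mitochondrial UMIs. Causes were not tested, other than that fewer genes can pass a larger fold and more when none is left out. Genes below the floor of 0.151 to 0.573 CPM could not be compared at this depth.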
